A study of Mus musculus with 16 samples.

Results

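Lungs of mice given bleomycin were compared with and without an inhibitor of the microRNA miR-199a-5p. The comparison used 10 of the 16 arrays of the series: 5 titled bleomycin with LNA-miR-199a-5p, called inhibitor lungs here, and 5 titled bleomycin with LNA-control, called control lungs. The titles chose the arrays, not any measured value. LNA stands for locked nucleic acid, a modified oligonucleotide; the inhibitor is directed against miR-199a-5p. All mice were C57BL/6 and 9 to 12 weeks old, and RNA came from the whole lung. All 10 lungs had received bleomycin at 1 unit per kg into the trachea. Each LNA was dosed by the same route at 5 mg/kg, on days 4 and 2 ahead of bleomycin and on day 4 afterwards. The same schedule with PBS in place of bleomycin gave 3 arrays with each LNA, which serve here as the background. The day of collection, the sex of the animals and an untreated group are not given in the sources used here. Nothing in the labels says that each array is a separate animal, so the p-values measure the spread between these samples, which may in part be technical.

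Bleomycin breaks DNA, injures the alveolar epithelium and is followed by inflammation, recruitment of monocyte-derived macrophages and deposition of collagen by fibroblasts. A microRNA guides Argonaute proteins to messenger RNAs that pair with its seed, the bases near its 5′ end, and lowers their stability or translation. miR-199a-5p is known in lung fibroblasts as a microRNA of fibrosis, and caveolin 1 (Cav1), which dampens TGF-beta signalling, is among its reported targets. The study asked, by its title, what silencing miR-199a-5p does to lung fibrosis caused by bleomycin. The arrays measure messenger RNA and not the microRNA itself, so the degree of silencing was not measured here.

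The mature sequences show what the inhibitor is directed against and what is made beside it from the same loci. In RefSeq's table (GRCm38.p6) miR-199a-5p has 2 loci with 1 mature sequence. Mir199a-2 gives it at chr1:162217844-162217866 on the plus strand, within the spans of Dnm3 and Dnm3os, and Mir199a-1 at chr9:21496537-21496559 on the minus strand, within the span of Dnm2. The other arm of the hairpins is miR-199a-3p, and miR-214-3p comes from the same Dnm3os transcript on chromosome 1. Capitals mark the seed, bases 2 to 8 from the 5′ end.
mmu-miR-199a-5p: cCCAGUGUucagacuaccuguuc
mmu-miR-199a-3p: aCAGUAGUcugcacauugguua
mmu-miR-214-3p: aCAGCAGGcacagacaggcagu
The 3 seeds differ from each other. In that table miR-199a-5p is the 1 name among 1738 mature microRNAs that carries its seed. The table may not hold every mouse microRNA, so the seed cannot be said to belong to miR-199a-5p alone.

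Values are deposited log2 intensities. A level is given as read on an array, and a difference is inhibitor minus control on the log2 scale with its standard error from limma and a p adjusted over all 20863 genes (Benjamini-Hochberg, called under 0.05). Between the 5 inhibitor and 5 control arrays 5188 genes were called, 24.9% of those tested: 2803 were higher (13.4%) and 2385 lower (11.4%). Most differences were small, with a median size of 0.15, and 248 called genes (1.19%) changed at least 2-fold, 82 higher (0.393%) and 166 lower (0.796%). The 5 arrays of one group lay wholly above or below the other 5 for 2871 genes (13.8%), 1524 higher (7.3%) and 1347 lower (6.46%). The median difference over all genes was 0.01. Every list below is read against these shares.

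Transcripts of other tissues differed between the groups, and they were measured before anything else. The heart muscle list had 14 of 18 members higher and 0 lower, with a median of 0.76. Its mean level ran from 10.28 to 10.76 in control and from 10.87 to 11.51 in inhibitor lungs, with no overlap. Mb, which encodes myoglobin, read 12.38, 12.64, 13.10, 12.17 and 12.14 in control and 13.74, 13.65, 13.24, 14.13 and 13.83 in inhibitor lungs, and rose by 1.23 ± 0.22 (adjusted p = 0.000851). Sln rose by 1.06 ± 0.18, and Myl7 and Tnni3, of the contractile apparatus, by 0.87 ± 0.14 and 0.89 ± 0.12. Heart muscle is also known in the walls of the pulmonary veins of mice. The 4 members that did not pass included Myl2 and Myl3. Skeletal muscle genes, given below, also separated the groups, and the source of the muscle transcripts was not tested. The fat list had 6 of 16 members higher and 0 lower (median 0.76), or 12 without PBS inhibitor replicate 3, an array low in fat transcripts; its mean was 10.22 to 10.70 in control and 11 to 11.37 in inhibitor lungs. Adipoq, the adipokine adiponectin, was 0.94 ± 0.28 (adjusted p = 0.0225) and 1.09 ± 0.34 (adjusted p = 0.0518) when 2 arrays described next were left out, and 0.64 ± 0.56 with the heart mean as covariate, not called.

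Thymocyte transcripts stood out on 2 control arrays. Rag1, the recombinase of developing lymphocytes, read 10.03, 5.5, 5.64, 10.88 and 6.00 on control replicates 1 to 5 and 5.51 to 6.10 in inhibitor lungs. Dntt, the terminal transferase of the same cells, read 11.10, 6.94, 6.73, 12.17 and 7.35 and 6.80 to 7.08. Control replicates 1 and 4 were thus far above the others, and the whole thymocyte list of 16 genes had a mean of 8.87 and 9.47 on these 2 arrays and of 7.38 to 7.79 on the other 8; 0 of the 16 were called by limma, 2 without control replicate 2 or 3 and 1 without control replicate 4. Skeletal muscle genes (8, a list added after the values were seen) averaged 10.20 to 10.68 in control and 11.11 to 11.99 in inhibitor lungs. Squamous epithelium genes averaged 9.35 to 10.27 and 10.21 to 10.94, with 2 called, 1 without control replicate 1 and 11 without PBS inhibitor replicate 3, and red blood cell genes 9.05 to 9.20 and 9.36 to 9.64.

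**Figure D1:**
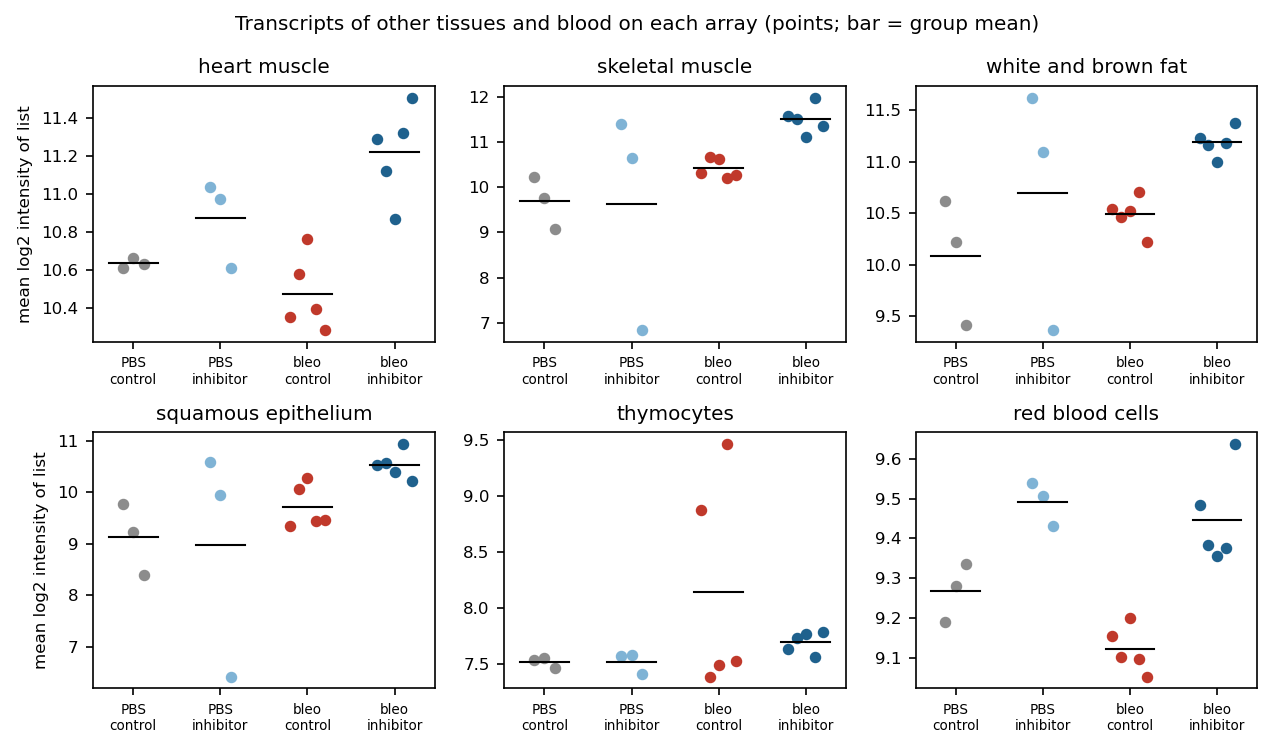
Mean log2 intensity of 6 lists of transcripts from other tissues or blood, 1 point per array in each of the 4 groups. Heart, skeletal muscle and fat means of the 5 inhibitor lungs lie above those of the 5 control lungs without overlap (heart 10.28 to 10.76 and 10.87 to 11.51), and the thymocyte mean is high on control replicates 1 and 4 alone (8.87 and 9.47).

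Results were therefore read in 2 further fits. Without control replicates 1 and 4, 2356 genes were called, and 2310 of these were among the 5188, all with the same sign. With the mean of the heart list as a covariate 108 genes were called (24 higher and 84 lower), of which 100 were among the 5188, while 88.6% of the 5188 kept their sign. Of the 174 called genes given below with values, 170 had a value in that fit. There 33 were called: Spp1, Trem2, Gpnmb, Ctss, Clec4n, Atp6v0d2, Krt79, Fabp1, Clec7a, Ccl24, C3ar1, Col4a5, Lamb3, Ctsk, Mmp12, Mmp9, Tgfb2, Psrc1, Gdf15, Ccng1, Zmat3, Igfbp2, Spock2, Lyz2, Muc5b, S100a9, Camp, Ngp, Ncr1, Ndnf, Ddx6, Atp13a3 and Cyyr1. The other 137 were not called there, whether or not their value in that fit is repeated below. Without the 2 control arrays 154 of the 174 were called and 20 were not. The heart mean separates the groups completely, so the covariate and the inhibitor cannot be told apart fully: standard errors grew by a median factor of 1.95, and a call lost in that fit does not show that a gene was unchanged. With the fat mean as covariate 3651 genes were called and with the thymocyte mean 3768. RNA integrity numbers were 7 to 9 in control (mean 8.2) and 8 to 10 in inhibitor lungs (mean 9.0), a difference of 0.8 (exact permutation test over 252 assignments, two-sided p = 0.286, smallest possible 0.00794), and 2981 genes were called with that number as covariate. The part of these tissues and of RNA quality in the results was not tested beyond these fits. In whole-lung RNA, fewer cells of a type and less RNA per cell cannot be told apart.

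Macrophage genes were broadly lower in inhibitor lungs. Of 33 measured monocyte and macrophage genes 25 fell and 0 rose, with a median difference of -0.61 against 0.01 over all genes, and 24 of them did not overlap between the groups (background 6.46%). The falls covered the phagocytic receptors Msr1, Fcgr1 and Fcgr3, the complement components C1qa, C1qb and C1qc, the monocyte receptors Ccr2 and Cx3cr1, and Adgre1 and Csf1r, which mark macrophages in general. Cd14, Fabp5, Cd9, Cd36, Lyz1, Plin2, Cd163 and Itgam did not pass, although 1 of the 3 Itgam probes was called higher (0.34), and Csf1r was called on 1 of its 3 probes. Without control replicates 1 and 4 the count was 24 with a median of -0.57. With the heart covariate the median stayed at -0.60 and 7 members were called, among them Spp1, Trem2, Gpnmb, Ctss and Lyz2.

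Spp1, the secreted matrix protein osteopontin, read 14.47, 13.72, 13.33, 14.01 and 14.59 in control and 10.57, 10.82, 10.53, 10.41 and 10.32 in inhibitor lungs. The groups lay far apart, and the inhibitor lungs were near the PBS lungs given LNA-control, whose 3 arrays averaged 10.25. With the heart covariate its difference was -2.75 ± 0.30 (adjusted p = 0.000397). Trem2, the lipid receptor of macrophages, read 13.00, 12.92, 13.01, 12.89 and 13.16 and 10.52, 10.62, 10.54, 10.77 and 11; here the inhibitor lungs stayed above the PBS controls (mean 9.53). Gpnmb, a transmembrane protein of lipid-laden macrophages, read 11.89, 11.87, 11.93, 11.58 and 11.81 and 10.01, 9.87, 9.89, 10.30 and 10.10, again without overlap and again above the PBS controls (mean 8.88). The C-type lectin gene Clec4n (dectin-2) read 13.93, 13.31, 13.28, 13.76 and 13.77 and 11.67, 11.99, 11.92, 11.85 and 11.87 and fell by 1.75 ± 0.11 (3.36-fold, adjusted p = 3.79e-08); the inhibitor lungs were close to the PBS control mean of 11.50.

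The promoters of Spp1 and Trem2 are shown because these genes moved together. Each line is RefSeq's 250 bases before the annotated start (GRCm38.p6), 5′ to 3′ on the strand of the gene, and capitals mark GAGGAA or its reverse complement TTCCTC, the core bound by the macrophage factor PU.1. Spp1 lies at chr5:104434861-104435110 on the plus strand (the first of its 2 starts in the table) and Trem2 at chr17:48346151-48346400 on the plus strand.
Spp1: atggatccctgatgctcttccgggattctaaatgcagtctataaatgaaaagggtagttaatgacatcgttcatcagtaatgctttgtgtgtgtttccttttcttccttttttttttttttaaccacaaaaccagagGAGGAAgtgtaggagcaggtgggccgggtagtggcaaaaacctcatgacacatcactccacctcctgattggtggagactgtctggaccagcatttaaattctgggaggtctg
Trem2: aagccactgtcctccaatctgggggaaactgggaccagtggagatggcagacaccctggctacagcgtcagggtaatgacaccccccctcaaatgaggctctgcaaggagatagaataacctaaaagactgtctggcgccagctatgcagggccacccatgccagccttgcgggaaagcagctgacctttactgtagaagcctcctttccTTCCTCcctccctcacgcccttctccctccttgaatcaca
The match is 113 bases before the start in Spp1 and 40 bases in Trem2. On either strand, 15 of 30 promoters of the macrophage list (25 genes with an entry) held GAGGAA, or 50%, against 23.3% of all 32851 promoters of the same length. A match is a description of the letters and not a binding site.

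Lysosomal genes followed. In the list for lipid handling and lysosomes 19 of 27 members fell and 0 rose (median -0.37), and 16 did not overlap. Ctss, a cathepsin that cuts elastin and helps load MHC class II, read 15.84, 15.88, 15.59, 15.82 and 15.88 in control and 14.47, 14.59, 14.68, 14.38 and 14.53 in inhibitor lungs and fell by 1.27 ± 0.07 (2.42-fold). Atp6v0d2, a macrophage subunit of the proton pump that acidifies lysosomes, fell by 0.96 ± 0.07 (adjusted p = 2.98e-07), and both were also called with the heart covariate (-1.05 ± 0.13 and -0.84 ± 0.14). Ctsd, an aspartic protease, fell by 0.91 ± 0.09, Lipa, the acid lipase that frees cholesterol, by 0.84 ± 0.08, and the cysteine protease Ctsb by 0.74 ± 0.08. With the heart covariate these were -0.80 ± 0.18, -0.72 ± 0.16 and -0.65 ± 0.15, with adjusted p of 0.0738, 0.0605 and 0.0797. That fit left 1 list member called (median -0.27), and without control replicates 1 and 4 14 members were called.

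The Ctsd promoter (chr7:142387828-142388077, minus strand, same build and window) is shown for the element TCACGTG, known from lysosomal genes and read by factors of the TFEB family. Capitals mark it and its reverse complement CACGTGA.
Ctsd: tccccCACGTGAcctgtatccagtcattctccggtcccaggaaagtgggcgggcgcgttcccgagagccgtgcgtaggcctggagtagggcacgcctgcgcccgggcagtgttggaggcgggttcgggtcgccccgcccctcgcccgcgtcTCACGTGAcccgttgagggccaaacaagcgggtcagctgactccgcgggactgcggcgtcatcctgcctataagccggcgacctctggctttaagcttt
It has the motif at 245, 98 and 99 bases before the start, the last 2 being overlapping matches on opposite strands. Of 25 promoters of the lysosome list (21 genes) 6 held it, or 24.0%, against 3.1% of all promoters.

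Genes of resident alveolar macrophages did not move as 1 group: 7 of 20 rose and 5 fell (median 0.26). Fabp1, a fatty acid binding protein, read 8.32, 8.44, 9.31, 8.49 and 8.30 in control and 10.95, 10.97, 10.65, 10.87 and 11.16 in inhibitor lungs and rose by 2.35 ± 0.16 (5.09-fold, adjusted p = 1.28e-07); control replicate 3 was the highest of its group, still below every inhibitor lung. Krt79, a keratin read in alveolar macrophages, was 10.30, 10.50, 10.64, 10.64 and 10.40 and 11.86, 12.15, 12.41, 12.01 and 12.21 and rose by 1.63 ± 0.10. Both came near the PBS controls (means 11.49 and 11.83), from which bleomycin with LNA-control had differed by -2.91 ± 0.19 and -1.33 ± 0.11. The control lungs enter this difference and the inhibitor difference with opposite signs, here and below, so the 2 are not independent. Both genes were called with the heart covariate (1.81 ± 0.29 and 1.71 ± 0.19). The scavenger receptor gene Marco was higher by 0.70 ± 0.17 and the lipid droplet gene Cidec, which is also on the fat list, by 1.04 ± 0.16. Ear2, Ear10 and Pparg were also higher. Olr1, a receptor of oxidised lipoprotein, fell by 1.15 ± 0.14, and Itgax, Mrc1, Bhlhe40 and Atp6v0d2 fell too. Siglecf and Chil3 did not pass, nor did Car4, although its other probe was called higher (0.67). The heart covariate left Marco at 0.92, Cidec at 0.72 and Olr1 at -0.56 ± 0.22 (adjusted p = 0.313), none of them called.

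Complement and alternative activation genes were split as well. Of 22 complement genes 11 fell and 4 rose: C3ar1, the receptor of C3a, fell by 1.43 ± 0.10 (heart covariate -1.57 ± 0.19, adjusted p = 0.00073), C1qb by 1.21 ± 0.15 and C1qc by 1.04 ± 0.13, while C2, C3 (on 10 of 11 probes), Serping1 and the fat-derived Cfd were higher. C1qb and C1qc were -1.01 and -0.86 with that covariate, not called. Of 17 genes of alternative activation 5 fell (Retnla, Clec7a, Socs3, Il4ra and Mrc1) and 2 rose. Clec7a, the beta-glucan receptor dectin-1, fell by 1.06 ± 0.09 and was called with the heart covariate (-0.61 ± 0.13). Ccl24, an eosinophil chemokine, read 7.11, 7.07, 7.08, 6.96 and 7.28 in control and 7.90, 9.22, 9.95, 8.13 and 8.33 in inhibitor lungs, rose by 1.61 ± 0.28 and varied more among the inhibitor lungs than among the controls. The other gene that rose, Cd209a, was 0.29 ± 0.08, and another of its probes had the opposite sign; it lost its call in both further fits. Arg1, the arginase of alternative activation, read 7.91 to 8.46 and 7.56 to 8.34 and did not pass (-0.14 ± 0.24, adjusted p = 0.698).

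**Figure D2:**
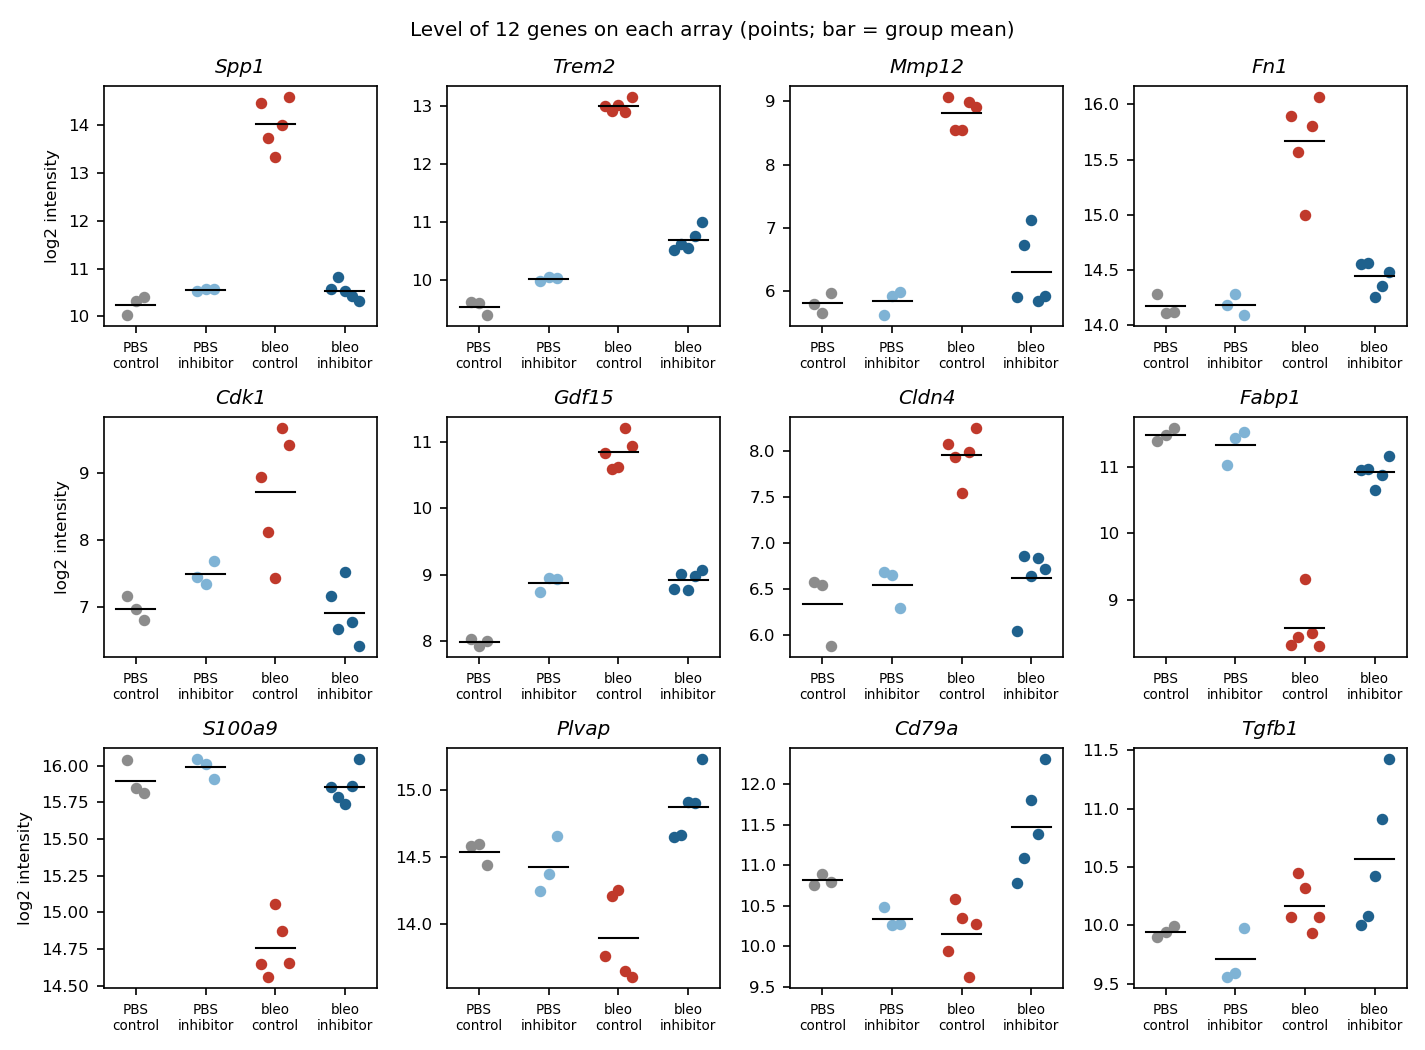
Log2 intensity of 12 genes on every array, 1 panel per gene, with the 4 groups side by side and a bar at each group mean. For Spp1, Trem2, Mmp12 and Fn1 the 5 inhibitor lungs lie below the 5 control lungs; for Fabp1, S100a9, Plvap and Cd79a they lie above; Tgfb1 overlaps.

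Genes for the fibrillar matrix, the tissue scaffold laid down in fibrosis, fell in 24 of 34 cases and rose in 1, with a median of -0.49 and 15 falls without overlap. Bleomycin with LNA-control had raised 26 of the same 34 above PBS with LNA-control (9.6% of all genes were called higher there). The same control lungs enter both counts, so they are not independent. Fibronectin (Fn1) read 15.90, 15.57, 15.00, 15.80 and 16.07 in control and 14.55, 14.56, 14.26, 14.36 and 14.48 in inhibitor lungs, fell by 1.23 ± 0.15 (2.34-fold, adjusted p = 4.07e-05), and its inhibitor lungs were near the PBS control mean of 14.17. Col1a1, a chain of type I collagen, read 14.73, 14.26, 13.96, 14.71 and 14.78 and 13.25, 13.50, 13.35, 13.09 and 13.64 and fell by 1.12 ± 0.14 (adjusted p = 5.65e-05). Col3a1, of type III collagen, read 15.34, 14.96, 14.59, 15.08 and 15.37 and 14.15, 14.36, 14.27, 14.11 and 14.40 and fell by 0.81 ± 0.13 (adjusted p = 0.00032). In all 3 genes the groups did not overlap, and control replicate 3 was the lowest control. Elastin (Eln) fell by 1.67 ± 0.21 and the early-repair glycoprotein tenascin C (Tnc) by 1.49 ± 0.19. Col1a2, Col5a1, Col5a2, Postn, Cthrc1 and Fbn1 also fell, as did Vcan on 2 of its 3 probes. Dcn, a small proteoglycan that binds collagen and TGF-beta, was the member that rose (0.48 ± 0.10, adjusted p = 0.00202).

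The matrix falls were fewer in both further fits. Without control replicates 1 and 4, 14 members fell and 1 rose (median -0.42), with Fn1 at -1.10 ± 0.17 and Col1a1 at -0.97 ± 0.15. With the heart covariate the median was -0.37 and 0 members were called by limma, where 108 of all genes were; Fn1 was -0.89 ± 0.28 (adjusted p = 0.205), Col1a1 -0.81 ± 0.27 (adjusted p = 0.232), Col3a1 -0.40 ± 0.22 (adjusted p = 0.524), Eln -1.48, Tnc -0.99 and Dcn 0.09 ± 0.15.

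Basement membrane genes fell in 9 of 19 cases and rose in 1, Lama4 (median -0.24). Lama1, a laminin chain, read 10.71, 9.86, 9.23, 10.89 and 10.83 in control and 8.12, 8.36, 8.26, 8.03 and 8.42 in inhibitor lungs and fell by 2.06 ± 0.25 (4.18-fold), though with the heart covariate it was -1.06 ± 0.40 (adjusted p = 0.303). Col4a5, of type IV collagen, fell by 0.86 ± 0.06 and Lamb3, an epithelial laminin chain, by 0.72 ± 0.06, each with little spread among arrays, and both were called with the heart covariate (-0.83 ± 0.13 and -0.78 ± 0.12). Lama2 fell by 0.43 ± 0.07 and was -0.54 in that fit, not called. Col4a5 in inhibitor lungs was below its PBS control mean (10.80 and 11.24).

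Enzymes that process and crosslink collagen changed less. Of 23, 6 fell and 3 rose (Pcolce2, and P4ha1 and Tll1 on 1 of 2 probes each), and the median was -0.02. Bmp1, which removes the C-terminal propeptide of procollagen, fell by 0.58 ± 0.07, and Adamts2, which removes the N-terminal one, by 0.67 ± 0.11. The other 2 Bmp1 probes did not pass. Lox, the crosslinking lysyl oxidase, fell by 0.67 ± 0.17 with overlapping groups, and Pcolce2 rose by 0.57 ± 0.13; both lost the call without control replicates 1 and 4 (-0.56 ± 0.18 and 0.42 ± 0.14). Loxl1, Loxl3 and Loxl4 did not pass. Loxl2, a lysyl oxidase homologue, did not pass on its brightest probe (-0.44) and was called lower on the other 2 (-0.96 and -1.04). The heart covariate left Bmp1 at -0.62 (adjusted p = 0.075), Adamts2 at -0.44, Lox at -0.12 and Pcolce2 at 0.14, and 0 of the 23 were called by limma.

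Matrix proteases and their inhibitors fell in 15 of 31 cases (median -0.30). Mmp12, the macrophage elastase, read 9.07, 8.55, 8.55, 9.00 and 8.91 in control and 5.91, 6.73, 7.12, 5.84 and 5.93 in inhibitor lungs; inhibitor replicates 2 and 3 were above the other three but below every control. Its difference was -1.36 ± 0.26 with the heart covariate (adjusted p = 0.0254). The other Mmp12 probe was also called lower, but by less (-0.44 against -2.51 on the brightest probe, both without that covariate). Ctsk, a collagen-cutting cathepsin, fell by 1.27 ± 0.09 (heart covariate -0.92 ± 0.16, adjusted p = 0.0127). Timp1, the inhibitor of metalloproteases, read 12.93, 12.16, 11.37, 12.81 and 13.10 and 10.12, 11.17, 11.45, 10.32 and 10.51, so that control replicate 3 lay within the range of the inhibitor lungs; it fell by 1.76 ± 0.29 and was -0.18 ± 0.35 with the heart covariate (adjusted p = 0.905). Adamts4, an aggrecanase, fell by 1.68 ± 0.28 and was -0.47 ± 0.43 with that covariate. Mmp9, the gelatinase of neutrophils, was the member that rose: 6.92, 6.99, 7.04, 7.19 and 7.02 against 7.75, 7.95, 8.06, 7.96 and 8.37, a rise of 0.99 ± 0.09 (adjusted p = 4.76e-06) that was 0.92 ± 0.19 with the heart covariate.

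In the TGF-beta pathway, the main signal for matrix production, 11 of 29 genes fell and 6 rose (median -0.11). Among ligands Tgfb2 read 11.80, 11.89, 11.64, 11.73 and 11.75 in control and 11.29, 11.02, 11.03, 10.88 and 11.10 in inhibitor lungs and fell by 0.70 ± 0.08, also with the heart covariate (-0.79 ± 0.15). Tgfb1 read 10.07, 10.45, 10.32, 9.94 and 10.07 and 10.00, 10.08, 10.43, 10.91 and 11.43; the groups overlapped and it did not pass (0.40 ± 0.21, adjusted p = 0.182), and with the heart covariate it was -0.14 ± 0.39. The type I receptor gene Tgfbr1 fell by 0.48 ± 0.07, and Tgfbr2 and the alpha v and beta 6 integrin genes Itgav and Itgb6, whose products release active TGF-beta, were also lower. Among genes the pathway induces, Tgfbi fell by 0.68 ± 0.10 and Ccn2, connective tissue growth factor, by 0.50 ± 0.10. Ltbp4, which stores latent TGF-beta, rose by 0.86 ± 0.12, as it did on another probe (0.88), while 1 more did not pass (0.19). The other members that rose were Tgfbr3, Smad3 (on 1 of 2 probes), Smad6, Smurf2 and Eng. Under the heart covariate Tgfb2 was the 1 member called; Tgfbr1 was -0.28, Tgfbi -0.60, Ccn2 -0.71 and Ltbp4 0.46.

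Genes of myofibroblasts and smooth muscle leaned up, though not with the heart covariate. Of 18, 12 rose and 2 fell (median 0.32). Tpm1, a tropomyosin gene, was higher on its brightest probe (0.65), but other probes of it were called lower (-0.30, -0.55 and -0.45). Acta2, smooth muscle actin, read 13.81, 14.07, 14.15, 13.85 and 13.81 in control and 14.25, 14.26, 14.30, 14.93 and 15.01 in inhibitor lungs and rose by 0.61 ± 0.14 (adjusted p = 0.00552); inhibitor replicates 4 and 5 were highest. Des, which encodes desmin, rose by 0.81 ± 0.17 and Cnn1, calponin, by 0.28 ± 0.06. Heart transcripts were also high in these lungs. Adjusted for the heart mean, the list had 0 members called and a median of 0.03, and Acta2 was -0.07 ± 0.20, Des 0.22, Cnn1 0.12, Hhip -0.76 and Cald1 -0.15. Without control replicates 1 and 4, 3 rose and 1 fell (9 in all without either of them alone), and Acta2 was 0.54 ± 0.17 (adjusted p = 0.0573). Hhip, a hedgehog-binding gene of lung fibroblasts, read 11.05, 11.02, 10.98, 11.02 and 11.22 and 10.42, 10.31, 10.15, 9.89 and 10.09 and fell by 0.89 ± 0.09. Cald1 fell by 0.42 ± 0.13 but was -0.33 ± 0.16 without those arrays (adjusted p = 0.192) and lost its call in 5 of 16 fits that left out 1 array.

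Resident lung fibroblast genes rose in 9 of 19 cases and fell in 3, Mfap4, Dpt and Gyg (median 0.34). Inmt, a methyltransferase of alveolar fibroblasts, read 15.30, 16.35, 16.61, 15.19 and 15.40 in control and 16.92, 16.94, 16.98, 17.10 and 16.98 in inhibitor lungs: control replicates 2 and 3 were nearest to the inhibitor lungs, which were tightly grouped near the PBS control mean of 16.84. It rose by 1.21 ± 0.21 and was 0.45 ± 0.36 with the heart covariate. The amino acid transporter gene Slc7a10 rose by 0.96 ± 0.16 and the esterase gene Ces1d by 0.59 ± 0.10. Mfap4, which sits on elastic fibres, fell by 0.85 ± 0.12. In the heart-adjusted fit 0 members were called (median 0.06), with Slc7a10 at 0.56, Ces1d at 0.32 and Mfap4 at -0.79. Mesothelial genes rose in 6 of 12 cases (median 0.26): Wt1, a transcription factor of the pleural lining, by 0.66 ± 0.12, the uroplakin gene Upk3b by 0.55 ± 0.08 and the Wnt agonist gene Rspo1 by 0.42 ± 0.08. Krt7 fell by 0.38 ± 0.09, and 3 rose without control replicates 1 and 4. None of these 4 was called with the heart covariate, which left Wt1 at 0.89, Upk3b at 0.39, Rspo1 at 0.10 and Krt7 at -0.64.

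Bleomycin breaks DNA, and targets of p53, the transcription factor that answers such damage, fell in 17 of 27 cases and rose in 1 (Sesn1), with a median of -0.38. In control lungs 15 of them had been above PBS, a count that shares the control lungs with the falls and is not independent of them. Psrc1, a spindle gene that p53 induces, read 8.85, 8.53, 8.40, 8.91 and 8.83 in control and 6.84, 6.54, 6.60, 6.53 and 6.63 in inhibitor lungs and fell by 2.08 ± 0.11 (4.22-fold, adjusted p = 9.56e-09). Gdf15, a stress cytokine, read 10.84, 10.59, 10.63, 11.21 and 10.95 and 8.78, 9.01, 8.77, 8.98 and 9.07 and fell by 1.92 ± 0.11 (3.79-fold, adjusted p = 1.06e-08). Both groups of arrays were far apart for these genes. Ccng1, cyclin G1, fell by 1.28 ± 0.09 and Zmat3, an RNA-binding target of p53, by 0.84 ± 0.07. All 4 were called with the heart covariate (-1.72 ± 0.19, -1.79 ± 0.21, -1.05 ± 0.16 and -0.67 ± 0.14), where 5 members of the list fell and the median was -0.43. Cdkn1a, the cell cycle inhibitor p21, read 11.52, 12.48, 12.30, 12.68 and 12.32 and 11.17, 11.36, 11.20, 12.03 and 11.67 with overlapping groups and fell by 0.77 ± 0.19 (adjusted p = 0.00688), with -1.17 under the heart covariate, not called. Without that covariate all 12 of its probes were called lower, the others at -0.58 to -1.04. Mdm2, Phlda3 and Sesn2 also fell, while Bbc3, Perp and Fas did not pass. Sesn1 rose by 0.45 ± 0.11 and lost that call in both further fits (0.13 with the heart covariate).

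Genes of cell division were lower too, but unevenly among the control lungs. Of 29 genes for mitosis and the kinetochore 25 fell and 0 rose (median -1.07), though 3 did so without overlap (background 6.46%). Cdk1, the kinase that starts mitosis, read 8.94, 8.12, 7.43, 9.68 and 9.42 in control and 7.17, 6.67, 7.53, 6.78 and 6.42 in inhibitor lungs: control replicate 3 lay within the range of the inhibitor lungs, and control replicates 1, 4 and 5 were highest. It fell by 1.81 ± 0.33 (3.5-fold, adjusted p = 0.00115), while of its other 2 probes 1 fell by 0.25 and 1, at -0.26, did not pass. Prc1, which bundles the microtubules of the late spindle, read 11.53, 10.59, 9.78, 11.54 and 11.31 and 9.18, 9.43, 9.58, 9.28 and 9.24 and fell by 1.61 ± 0.26 (adjusted p = 0.000381). Kif20a, a kinesin of cytokinesis, fell by 1.56 ± 0.28, Spc25, of the kinetochore but not on the list, by 1.69 ± 0.25, and the spindle gene Hmmr by 0.77 ± 0.12.

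DNA replication genes behaved alike: 23 of 29 fell, 0 rose and 5 did not overlap (median -0.48). Tk1, thymidine kinase, fell by 1.03 ± 0.17, Gins2, of the replicative helicase, by 0.86 ± 0.16, and the licensing factor Cdc6 by 0.59 ± 0.11. Ccne1, cyclin E1, fell by 0.88 ± 0.17, but its second probe did not pass (-0.19). Control replicates 1 and 4, rich in thymocyte transcripts, were among the high arrays, and so was control replicate 5. On that array Rag1, at 6.00, lay within its range in inhibitor lungs, while Dntt lay above its own range there. Leaving out control replicates 1 and 4, there were 14 mitosis genes that fell (median -0.75) and 9 replication genes (median -0.37), with Cdk1 at -1.41 ± 0.34 (adjusted p = 0.0162) and Prc1 at -1.22 ± 0.24 (adjusted p = 0.00546). In the fit with the heart covariate limma called 0 members of either list, the medians were -0.13 and -0.05, and Cdk1 was -0.17 ± 0.45 (adjusted p = 0.938). Prc1 was -0.54 there, Kif20a -0.33, Spc25 -0.77, Hmmr -0.55, Tk1 -0.50, Gins2 -0.30, Cdc6 -0.24 and Ccne1 -0.13, none called.

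The Prc1 and Cdk1 promoters are shown since mitosis genes moved together. Capitals mark CCAAT or its reverse complement ATTGG, the box bound by NF-Y, and TTTGAA, known as the cell cycle genes homology region. Both are RefSeq's 250 bases before a start (GRCm38.p6): Prc1 at chr7:80294201-80294450 on the plus strand (1 of 2 starts) and Cdk1 at chr10:69352913-69353162 on the minus strand.
Prc1: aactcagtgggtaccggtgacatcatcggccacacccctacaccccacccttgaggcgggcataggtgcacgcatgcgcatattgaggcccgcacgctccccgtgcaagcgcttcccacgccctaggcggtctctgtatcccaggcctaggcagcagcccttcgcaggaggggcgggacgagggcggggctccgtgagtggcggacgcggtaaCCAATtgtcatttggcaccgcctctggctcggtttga
Cdk1: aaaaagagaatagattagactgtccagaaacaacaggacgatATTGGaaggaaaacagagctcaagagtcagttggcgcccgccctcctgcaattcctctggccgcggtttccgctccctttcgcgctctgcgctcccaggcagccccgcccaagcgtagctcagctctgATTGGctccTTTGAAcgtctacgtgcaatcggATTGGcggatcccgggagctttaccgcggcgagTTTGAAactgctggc
Prc1 has 1 CCAAT 37 bases before its start, and Cdk1 has 3 in the reverse direction and TTTGAA 71 and 15 bases before its start. On either strand CCAAT was in 22 of 26 promoters of the mitosis list (24 genes), or 84.6%, against 33.8% of all 32851. TTTGAA or its reverse complement TTCAAA was in 10 of the 26, or 38.5%, against 16.0%.

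**Figure D3:**
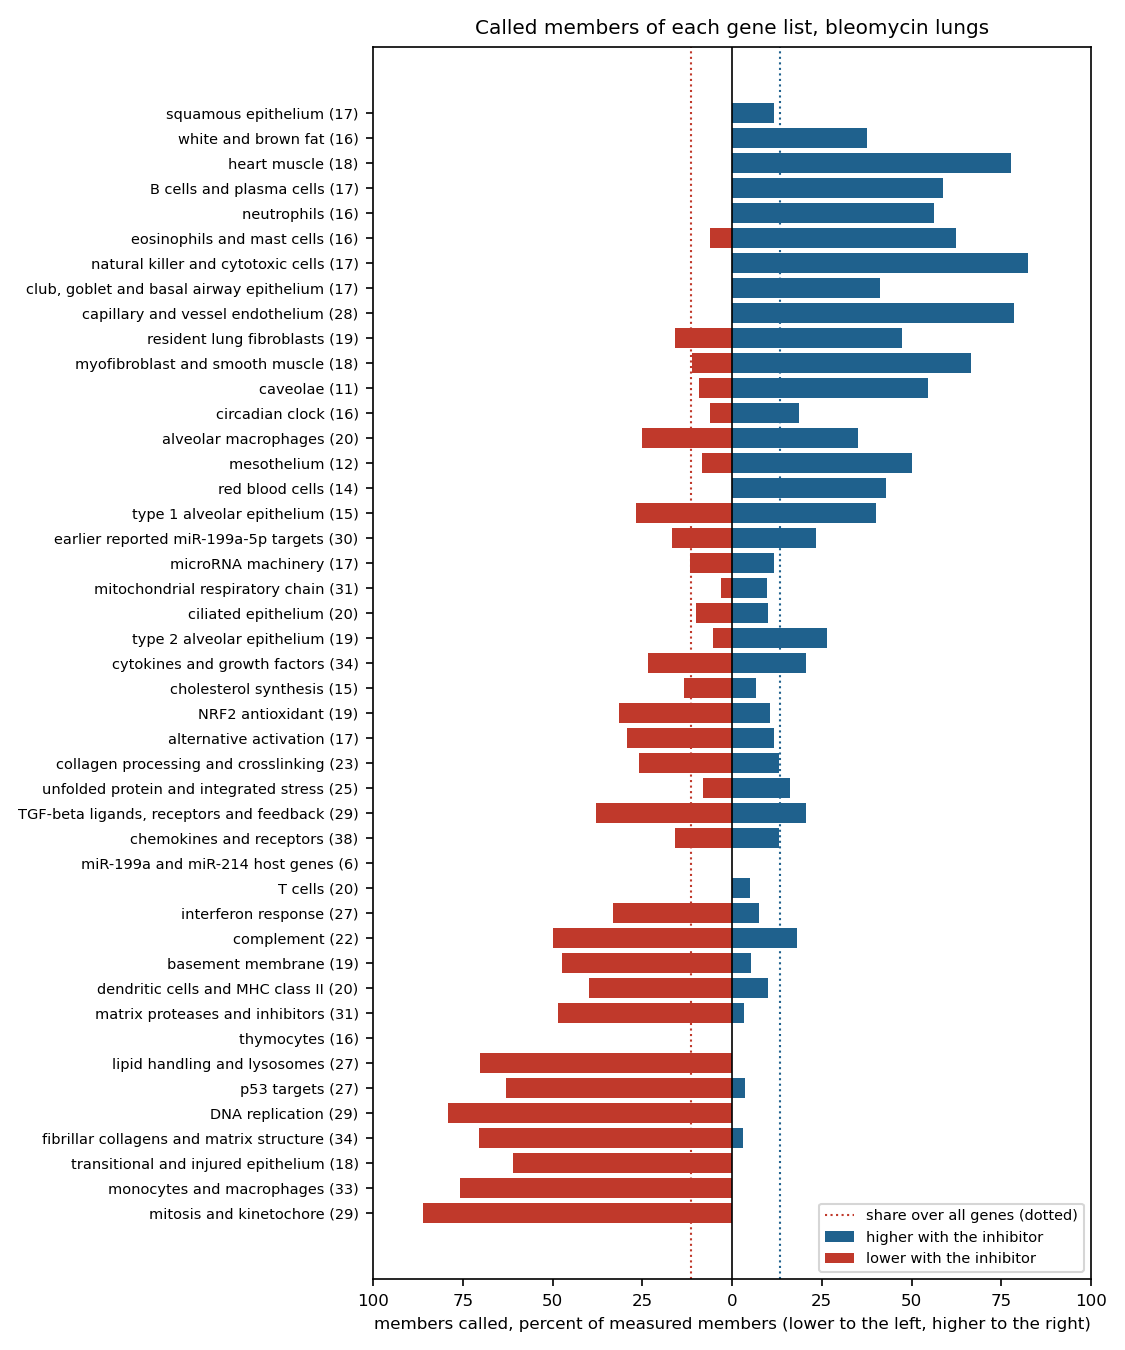
Share of the measured members of each gene list shown that were called higher (right) or lower (left) in inhibitor than in control lungs, in percent. Dotted lines give the shares over all 20863 genes, 13.4% higher and 11.4% lower; macrophage, mitosis and fibrillar matrix lists lie far to the lower side and endothelial and natural killer cell lists to the higher side.

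Among the epithelial lists the clearest fall was in that for transitional and injured cells. Type 2 cells pass through this state while replacing lost type 1 cells. Of its 18 genes 11 fell and 0 rose (median -0.60), and 8 did not overlap. Cldn4, a tight junction claudin of that state, read 8.07, 7.93, 7.54, 7.98 and 8.25 in control and 6.05, 6.86, 6.64, 6.84 and 6.72 in inhibitor lungs and fell by 1.33 ± 0.17 (2.52-fold, adjusted p = 6.99e-05); inhibitor replicate 1 was lowest. Lgals3, galectin 3, fell by 0.63 ± 0.08, Krt18, a keratin of simple epithelium, by 0.62 ± 0.08, and Clu, the secreted chaperone clusterin, by 0.62 ± 0.08. Krt8, Itgb6, Anxa1 and Tnfrsf12a fell as well. Lgals3 is also on the macrophage list, and in whole-lung RNA the cells behind these falls were not told apart. The count of falls was also 11 without control replicates 1 and 4, while with the heart covariate the median was -0.56 and 0 members were called (Cldn4 -1.16, Lgals3 -0.68, Krt18 -0.41 and Clu -0.57).

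Type 1 alveolar genes were divided, 6 of 15 higher and 4 lower (median 0.13), with 6 calls in all without control replicate 5. Spock2, a proteoglycan, read 13.32, 13.47, 13.08, 13.33 and 13.49 in control and 11.85, 11.59, 11.91, 11.84 and 12.24 in inhibitor lungs, and Igfbp2, which binds insulin-like growth factors, 14.59, 14.48, 14.39, 14.53 and 14.51 and 13.23, 13.20, 13.19, 12.83 and 13.27. The groups were well separated, and the genes fell by 1.45 ± 0.10 and 1.36 ± 0.08, with -1.44 ± 0.21 and -1.31 ± 0.17 under the heart covariate. Cldn18 and Scnn1g also fell. Hopx, a transcription cofactor of type 1 cells, rose by 0.66 ± 0.11 and the chloride channel gene Clic5 by 0.38 ± 0.07, with 0.39 and 0.27 under that covariate, neither called. Ager, the receptor that marks type 1 cells, was 0.40 ± 0.13 (adjusted p = 0.0316), lost its call in 5 of 16 fits without 1 array, and was -0.07 ± 0.21 with the heart covariate.

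Of 19 type 2 genes 5 rose and 1 fell (median 0.05), and 10 were called without control replicate 3. With all arrays 31.6% were called, against 24.9% of all genes. Sftpa1, surfactant protein A, was 0.39 ± 0.09 and Slc34a2, a phosphate transporter, 0.39 ± 0.10, and neither passed without control replicates 1 and 4 or with the heart covariate (0.16 and 0.29). Sftpc, surfactant protein C, lay at the top of the scale on nearly all arrays and did not pass (-0.07 ± 0.05, adjusted p = 0.399). Whether a rise could have been read at that level was not tested. Lyz2, lysozyme of type 2 cells and macrophages, fell by 0.47 ± 0.08 and was -0.73 ± 0.14 with the heart covariate. Airway genes rose in 7 of 17 cases and fell in 0 (median 0.44). Muc5b, the secreted airway mucin, read 12.68, 12.69, 12.97, 12.58 and 12.78 in control and 13.50, 13.90, 13.96, 13.88 and 13.45 in inhibitor lungs and rose by 1.0 ± 0.11 (heart covariate 1.26 ± 0.20, adjusted p = 0.00801). Scgb3a1, a secretoglobin, rose by 0.99 ± 0.11, Tff2, a trefoil factor, by 1.24 ± 0.18 and the claudin gene Cldn10 by 0.54 ± 0.09; with that covariate they were 0.81, 1.58 and 0.44, none called. Ciliated cell genes had 2 of 20 members higher (Dnaic1, and Hydin on 1 of its 2 probes) and 2 lower (Tubb4b and Sntn), and 7 in all without control replicate 3. With all arrays 20% of this list was called, below the share over all genes.

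Endothelial genes rose in 22 of 28 cases and fell in 0 (median 0.40), 20 of them without overlap (background 7.3%). Bleomycin with LNA-control had lowered 19 of them against PBS (7.9% of all genes were called lower there). This count shares the control lungs with the rises and is not independent of them. Plvap, of the diaphragms of endothelial vesicles, read 13.76, 14.21, 14.25, 13.65 and 13.60 in control and 14.65, 14.67, 14.91, 14.90 and 15.23 in inhibitor lungs and rose by 0.98 ± 0.14 (1.97-fold, adjusted p = 0.000172). Tek, the angiopoietin receptor, rose by 0.60 ± 0.10, the transcription factor gene Sox18 by 0.70 ± 0.11, and Acvrl1, a receptor of BMP9, by 0.77 ± 0.13. Kdr (on 10 of its 11 probes), Flt1, Pecam1, Cdh5, Eng and Vwf also rose, though another Flt1 probe did not pass. When control replicates 1 and 4 were left out, 19 rose. Under the heart covariate the median was 0.35 and 1 member was called; Plvap was 0.62 ± 0.26 (adjusted p = 0.371) and Tek 0.32 ± 0.18 (adjusted p = 0.528), while Sox18 and Acvrl1 were 0.67 and 0.35, neither called.

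Among leukocytes other than macrophages most lists leaned up. Neutrophil genes rose in 9 of 16 cases and fell in 0 (median 0.56). S100a9, a subunit of calprotectin, read 14.65, 14.56, 15.06, 14.87 and 14.65 in control and 15.85, 15.79, 15.74, 15.86 and 16.05 in inhibitor lungs and rose by 1.10 ± 0.09 (2.14-fold, adjusted p = 9.66e-07). The granule genes Camp and Ngp rose by 1.22 ± 0.11 and 1.09 ± 0.10, and all 3 were called with the heart covariate (0.77 ± 0.16, 0.96 ± 0.20 and 1.01 ± 0.19), where the median of the list was 0.05 and 4 rose. Natural killer and cytotoxic cell genes rose in 14 of 17 cases (median 0.49): Gzma, granzyme A, by 0.78 ± 0.12, Il2rb, of the receptor for IL-2 and IL-15, by 0.73 ± 0.13, Ncr1, the receptor NKp46, by 0.63 ± 0.09, and Klrb1c by 0.49 ± 0.09, though another Klrb1c probe did not pass. Ncr1 was the member called with the heart covariate (0.81 ± 0.17, adjusted p = 0.045), with Gzma at 0.73, Il2rb at 1.07 and Klrb1c at 0.41, and the list had 9 rises without control replicates 1 and 4.

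B cell genes rose in 10 of 17 cases and fell in 0 (median 0.66). Cd79a, of the B cell receptor, read 9.94, 10.58, 10.35, 9.61 and 10.27 in control and 10.78, 11.09, 11.80, 11.39 and 12.32 in inhibitor lungs; the latter spread widely, with replicate 5 highest, and the groups did not overlap. It rose by 1.33 ± 0.23 (adjusted p = 0.000763), its partner Cd79b by 0.96 ± 0.15, the IgM receptor gene Fcmr by 1.11 ± 0.17 and Cd37 by 0.97 ± 0.16. The count was 9 without control replicates 1 and 4, and 0 with the heart covariate, where the median was 0.83 and Cd79a was 0.88 ± 0.44 (adjusted p = 0.472), Cd79b 0.86, Fcmr 0.89 and Cd37 0.73. Eosinophil and mast cell genes rose in 10 of 16 cases (median 0.49): Prg2, eosinophil major basic protein, by 1.26 ± 0.15, the protease gene Mcpt4 of connective tissue mast cells by 1.21 ± 0.20, Gata2 by 0.76 ± 0.09 and the IL-5 receptor gene Il5ra by 0.66 ± 0.10. Hdc, the histamine-forming enzyme, fell by 0.37 ± 0.09. The heart covariate left 0 members of this list called by limma, with Mcpt4 at 0.14 ± 0.26, Prg2 at 1.38 (adjusted p = 0.063), Gata2 at 0.74, Il5ra at 0.76 and Hdc at -0.37.

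Of 20 T cell genes 1 was higher and 0 lower: Cd2 at 0.33 ± 0.11 (adjusted p = 0.0415), a call lost in 12 of 16 fits without 1 array and with the heart covariate (0.56), while 10 of its 11 probes were called. The list's median was -0.14, and 0.20 without control replicates 1 and 4, the arrays rich in thymocyte transcripts. Of 20 genes for dendritic cells and MHC class II 8 fell and 2 rose (Cd209a and H2-Oa), with a median of -0.26. Ciita, the master regulator of MHC class II, was -0.58 ± 0.13, Itgae, an integrin of dendritic cells, -0.49 ± 0.12, and H2-Oa 0.62 ± 0.14; the heart covariate left them at -0.47, -0.27 and 0.46, none called. That count moved with single arrays, from 5 without inhibitor replicate 4 and 6 without control replicate 1, 4 or 5 to 11 at most.

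Chemokine genes were mixed, and 28.9% were called, near the 24.9% of all genes. Of 38, 6 fell (Ccl12, Ccl9, Ccr2, Cx3cr1, Cxcl16 and Ccl6) and 5 rose (Ccl24, Cxcl5, Cxcr5, Ccr3 and Ccl5). Ccl12, a monocyte chemokine, fell by 1.25 ± 0.20, and its receptor gene Ccr2 read 10.53, 10.38, 10.16, 10.41 and 10.74 in control and 9.82, 9.46, 9.91, 9.23 and 9.21 in inhibitor lungs and fell by 0.92 ± 0.14. Adjusted for the heart mean, Ccl12 was -0.21 ± 0.25 and Ccr2 -0.41 ± 0.23. Cx3cr1, of patrolling monocytes and macrophages, fell by 0.58 ± 0.09; Cxcr5, the receptor that leads B cells to follicles, rose by 1.08 ± 0.14. They were -0.60 and 1.27 in that fit, and none of these 4 was called. Among 34 cytokines and growth factors 8 fell and 7 rose. Igf1, made by macrophages and fibroblasts, fell by 1.17 ± 0.12, and was called on 9 of its 10 probes. Hbegf, an epidermal growth factor ligand, fell by 0.86 ± 0.12, Lif, of the IL-6 family, by 0.66 ± 0.09 and Hgf, a growth factor for epithelium, by 0.65 ± 0.09. None of these 4 was called with the heart covariate, which left Igf1 at -0.87, Hbegf at -0.46, Lif at -0.49 and Hgf at -0.27. The acute phase gene Saa3 ran from 9.11 to 11.54 in control and from 9.78 to 12.06 in inhibitor lungs and did not pass (-0.12 ± 0.46, adjusted p = 0.883); with the heart covariate it was 2.35 ± 0.57 (adjusted p = 0.0913).

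Interferon-induced genes fell in 9 of 27 cases and rose in 2, Gbp2 and Irf1 (median -0.21). Isg15, a ubiquitin-like modifier, fell by 0.91 ± 0.16, Mx1, an antiviral GTPase, by 0.83 ± 0.16, and Oas1a, an RNA sensor, by 0.80 ± 0.12, while Gbp2 rose by 0.59 ± 0.12 and Irf1 by 0.27 ± 0.07, Irf1 on 1 of its 2 probes. In the heart-adjusted fit the list's median was 0.11, 0 members were called and the first 3 were -0.27 ± 0.27, -0.42 ± 0.30 and -0.28 ± 0.19, with Gbp2 at 0.86 and Irf1 at 0.33.

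Stress and metabolic lists were read last among the pathways. The unfolded protein, cholesterol, respiratory chain and clock lists had 24%, 20%, 12.9% and 25% of members called. These shares were near or below the 24.9% of all genes. Of 25 genes of the unfolded protein and integrated stress responses 4 rose (Chac1, Atf5, Herpud1 and Ddit3) and 2 fell (Atf3 and Fgf21), or 3 in all without control replicate 4, control replicate 5 or inhibitor replicate 3. Chac1, which degrades glutathione, was 0.64 ± 0.11, the transcription factor gene Atf5 0.42 ± 0.06 and Atf3, an early stress factor, -0.83 ± 0.12. Herpud1 was 0.30 ± 0.09 and lost its call in 6 of 16 fits without 1 array. The heart covariate left these 4 at 0.44, 0.34, -0.73 and 0.57, none called. Of 19 NRF2 targets 6 fell and 2 rose (Gsta2 and Gpx3), and the count was 5 without control replicate 1, 2 or 4 and 4 without control replicate 5 or inhibitor replicate 4. The sulfiredoxin gene Srxn1 was -0.58 ± 0.08 and the plasma glutathione peroxidase gene Gpx3 0.74 ± 0.12, with -0.68 and 0.48 under the heart covariate, neither called. Cholesterol synthesis had 1 of 15 higher (Insig1) and 2 lower (Cyp51, and Stard4 on 1 of its 2 probes), but 1 in all without control replicate 1 or 5 or inhibitor replicate 4 or 5. The respiratory chain had 3 of 31 higher (Ndufb8, Ndufs1 and Sdha) and 1 lower (Sdhd), with 2 in all without control replicate 1 or inhibitor replicate 1 or 2 and 7 without control replicate 3. Of 16 clock genes 3 were higher (Npas2, Nr1d1 and Rora) and 1 lower (Cry1), or 2 in all without control replicate 1 or 5.

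Genes tied to the microRNA itself were read next. The caveolae list had 6 of 11 members higher and 1 lower (median 0.28). Cav1, the best known reported target of miR-199a-5p, read 10.55, 10.45, 10.78, 10.62 and 10.50 in control and 10.88, 10.97, 10.74, 10.98 and 10.60 in inhibitor lungs; the groups overlapped. Its rise of 0.25 ± 0.09 had an adjusted p of 0.04996 and lost its call in 12 of 16 fits without 1 array, with differences of 0.22 to 0.31 among them, and it was 0.26 ± 0.11 without control replicates 1 and 4 (adjusted p = 0.152). Cavin2 and Cavin1, which encode coats of caveolae, rose by 0.43 ± 0.09 and 0.35 ± 0.07 without overlap, though a second Cavin1 probe did not pass; Ehd4 was 0.31 ± 0.08. Ehd2, the ATPase at the neck of caveolae, was -0.45 ± 0.07, and its other probe did not pass. The list's count was 4 without control replicate 4, control replicate 5 or inhibitor replicate 2, and 0 by limma with the heart covariate, where Cavin2 was 0.45, Cavin1 0.44, Ehd4 0.19 and Ehd2 -0.35.

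Of 30 genes reported elsewhere as targets of miR-199a-5p, 7 were higher and 5 lower (23.3% and 16.7%, against 13.4% and 11.4% of all genes), with a median of 0.11 against 0.01. Map3k11, a kinase upstream of JNK, read 10.16, 10.53, 10.30, 10.03 and 9.92 in control and 10.68, 10.52, 10.86, 11.04 and 11.41 in inhibitor lungs and rose by 0.72 ± 0.16 with overlap between the groups. Ets2, a transcription factor, rose by 0.52 ± 0.07. The others that rose were Cav1, Ikbkb, Fzd4, Jam3 and Srf. Gsk3b, a kinase of Wnt signalling, fell by 0.54 ± 0.09 and was called on 2 of its 3 probes, and Lif, Has2, Ern1 and, on 1 of 2 probes, Hif1a also fell. With those 2 control arrays left out, 2 rose and 2 fell, and with the heart covariate 0 were called by limma (Map3k11 0.45, Ets2 0.47 and Gsk3b -0.76). In PBS lungs 0 of the 30 were called, where 10 of all genes were.

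The host genes did not pass. Dnm3os, the long RNA from which miR-199a and miR-214 are cut, read 6.42, 6.32, 6.00, 6.62 and 6.53 in control and 6.31, 6.13, 6.03, 6.24 and 6.13 in inhibitor lungs (-0.21 ± 0.10, adjusted p = 0.132), and it was -0.31 and called without control replicate 3. Dnm3, on the opposite strand, was -0.19 ± 0.07 (adjusted p = 0.055) and -0.22 and called without inhibitor replicate 3. Dnm2, Dnm1, Twist1 and Prrx1 did not pass either, and 1 of the 6 was called without control replicate 2, control replicate 3 or inhibitor replicate 3. In the microRNA machinery 2 of 17 rose (Dicer1 and Tnrc6b) and 2 fell (Ago2 and Ago3), or 23.5% called, against 24.9% of all genes. Ago2, the slicing Argonaute, was -0.36 ± 0.08 without overlap, Ago3 -0.28 ± 0.09, the scaffold gene Tnrc6b 0.33 ± 0.08 and Dicer1, which cuts the hairpins, 0.21 ± 0.07. The count was 2 without control replicate 4 or 5 or inhibitor replicate 2 or 5, and Ago3 and Dicer1 each lost their call in 6 of 16 fits without 1 array. Leaving out control replicates 1 and 4, Ago2 was the member called. The heart covariate left 0 called by limma, with Ago2 at -0.59, Ago3 at -0.18, Tnrc6b at 0.008 and Dicer1 at 0.04.

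Several of the largest differences lay outside the lists. Igfbp3, which binds insulin-like growth factors, read 7.62, 8.31, 8.65, 7.32 and 7.72 in control and 9.97, 9.53, 9.75, 9.46 and 9.28 in inhibitor lungs and rose by 1.67 ± 0.20 (3.19-fold); the inhibitor lungs were near the PBS control mean of 9.98. The phospholipid transfer protein gene Pltp rose by 1.58 ± 0.28, Bex2 by 1.58 ± 0.19, Ppp1r1b by 1.5 ± 0.19, Nrn1 by 1.45 ± 0.17, Fabp12 by 1.35 ± 0.17, Lypd2 by 1.35 ± 0.17 and the matrix protein gene Chad, chondroadherin, by 1.31 ± 0.18. None of these 8 was called with the heart covariate, where they ran from 0.62 ± 0.47 to 1.38 ± 0.39, and Ryr1, the calcium channel of skeletal muscle, was 1.29 ± 0.23 without it and 0.23 ± 0.33 with it. Ndnf, a secreted neuron-derived factor, read 11.56, 11.36, 11.26, 11.76 and 11.51 and 9.73, 9.51, 9.43, 9.53 and 9.93 and fell by 1.87 ± 0.11 (3.65-fold, adjusted p = 1.32e-08); the groups were far apart, and it was -1.94 ± 0.21 with the heart covariate (adjusted p = 0.000397). Fxyd4, a regulator of the sodium pump, fell by 2.25 ± 0.26 and the adhesion gene Nrcam by 1.72 ± 0.16, with -1.18 ± 0.42 and -1.09 ± 0.27 under that covariate, neither called. Red blood cell genes rose in 6 of 14 cases; among them Ank1 was 0.79 ± 0.12 and the anion exchanger gene Slc4a1 0.75 ± 0.15, with 0.10 and 0.30 under the heart covariate, neither called.

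**Figure D4:**
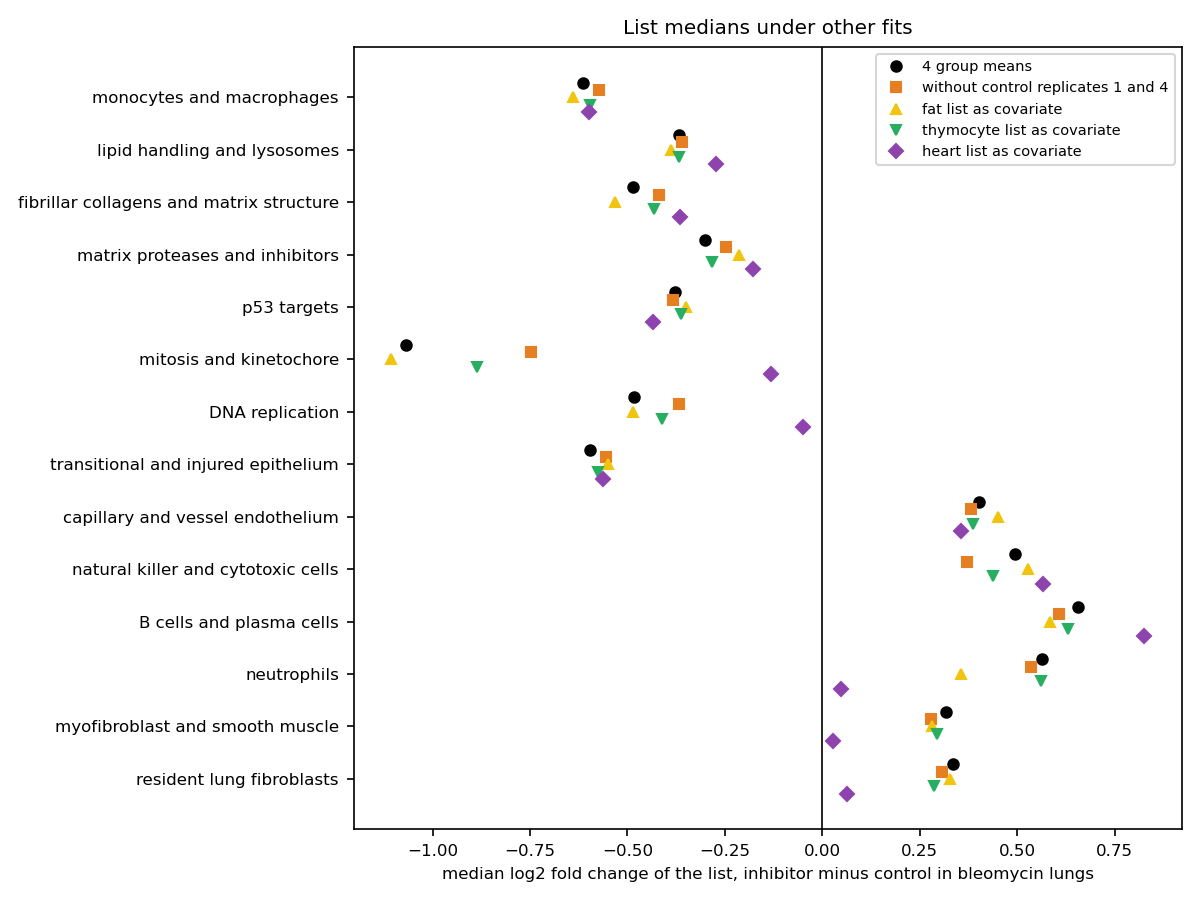
Median log2 difference (inhibitor minus control) of 14 gene lists in bleomycin lungs under the fit of 4 group means, without control replicates 1 and 4, and with the mean of the fat, thymocyte or heart list as covariate. The macrophage median stays between -0.64 and -0.57 in these 5 fits, while that of the mitosis list moves from -1.07 to -0.13 with the heart covariate and that of smooth muscle from 0.32 to 0.03.

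The same inhibitor was then read in PBS lungs, 3 arrays against 3. There 10 genes were called, 0.0479% of those tested: 7 higher (0.0336%) and 3 lower (0.0144%). With fewer arrays the smaller number does not show a weaker effect, so the difference of the effects was tested as an interaction. It was called for 1462 genes (7.01%), 641 with the more positive effect in bleomycin lungs (3.07%) and 821 with the more negative (3.94%). For macrophage genes 19 of 33 had the more negative effect in bleomycin lungs, and for fibrillar matrix 13 of 34 and for p53 targets 14 of 27; the median effects in PBS lungs were 0.05, 0.02 and 0.14. For endothelium 13 of 28, for natural killer cells 10 of 17 and for B cells 10 of 17 had the more positive effect in bleomycin lungs. The mitosis list had 12 of 29 with the more negative effect. Neither these list counts nor the interactions of single genes given below were read in the further fits. Over all genes, the interaction was called for 525 without the control arrays rich in thymocyte transcripts and for 166 with the heart covariate. How far the list counts depend on these tissues was not tested.

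Gdf15 differed in sign between the treatments. In PBS lungs it averaged 7.98 with LNA-control and 8.87 with the inhibitor, a rise of 0.89 ± 0.14 (adjusted p = 0.0289), and in bleomycin lungs it fell, so that the interaction was -2.81 ± 0.17 (adjusted p = 1.42e-07). Spp1 and Trem2 were 0.30 ± 0.24 and 0.49 ± 0.11 in PBS lungs, neither called, with interactions of -3.80 ± 0.30 and -2.79 ± 0.14. Gpnmb was 0.69 ± 0.12 (adjusted p = 0.0578) with an interaction of -2.47 ± 0.15.

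A few genes were called the same way in both treatments. Ddx6, an RNA helicase of P-bodies that acts in silencing by microRNAs, read 11.87, 11.63, 11.92, 11.99 and 11.77 in control and 10.46, 10.28, 10.08, 10.05 and 10.07 in inhibitor lungs after bleomycin and fell by 1.65 ± 0.10 (3.13-fold, adjusted p = 3.79e-08). After PBS it fell by 0.90 ± 0.13 (adjusted p = 0.0289), and the interaction was -0.74 ± 0.17 (adjusted p = 0.0163). Bleomycin with LNA-control differed from PBS with LNA-control by -0.04 ± 0.12, a difference smaller than its standard error. Atp13a3, a transporter of polyamines, fell by 1.20 ± 0.11 after bleomycin and 0.85 ± 0.14 after PBS, and Cyyr1 by 1.15 ± 0.12 and 1.28 ± 0.15, with interactions of -0.36 ± 0.18 and 0.13 ± 0.20 that did not pass. All 3 were called in bleomycin lungs with the heart covariate (-1.60 ± 0.21, -1.17 ± 0.21 and -1.14 ± 0.24) and without control replicates 1 and 4.

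Il22ra2, a soluble receptor that binds IL-22, rose by 0.96 ± 0.14 after bleomycin and 1.08 ± 0.18 after PBS. Camp rose by 0.89 ± 0.14 after PBS, and the blood group genes Kel and Rhd by 0.60 ± 0.10 and 0.76 ± 0.12 there and by 0.74 ± 0.07 and 0.79 ± 0.10 after bleomycin. These 4 had interactions of -0.12, 0.33, 0.14 and 0.03, none called. In bleomycin lungs the heart covariate left Il22ra2 at 0.40 ± 0.22 (adjusted p = 0.537), Kel at 0.57 and Rhd at 0.69, none called, and Camp called at 0.96. Cxcr1 and Il33 completed the 10 genes called in PBS lungs. The PBS count rested on single arrays. It was 2 without PBS control replicate 2 or PBS inhibitor replicate 2, and which genes kept their PBS call there was not recorded. It was 121 without PBS inhibitor replicate 3. That array stood apart in transcripts of other tissues, with a squamous list mean of 6.42 (the other 2 of its group 9.94 and 10.60), a skeletal muscle mean of 6.84 (10.65 and 11.40) and a fat mean of 9.36 (11.10 and 11.62). The interaction count was lowest, at 632, without PBS control replicate 2.

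**Figure D5:**
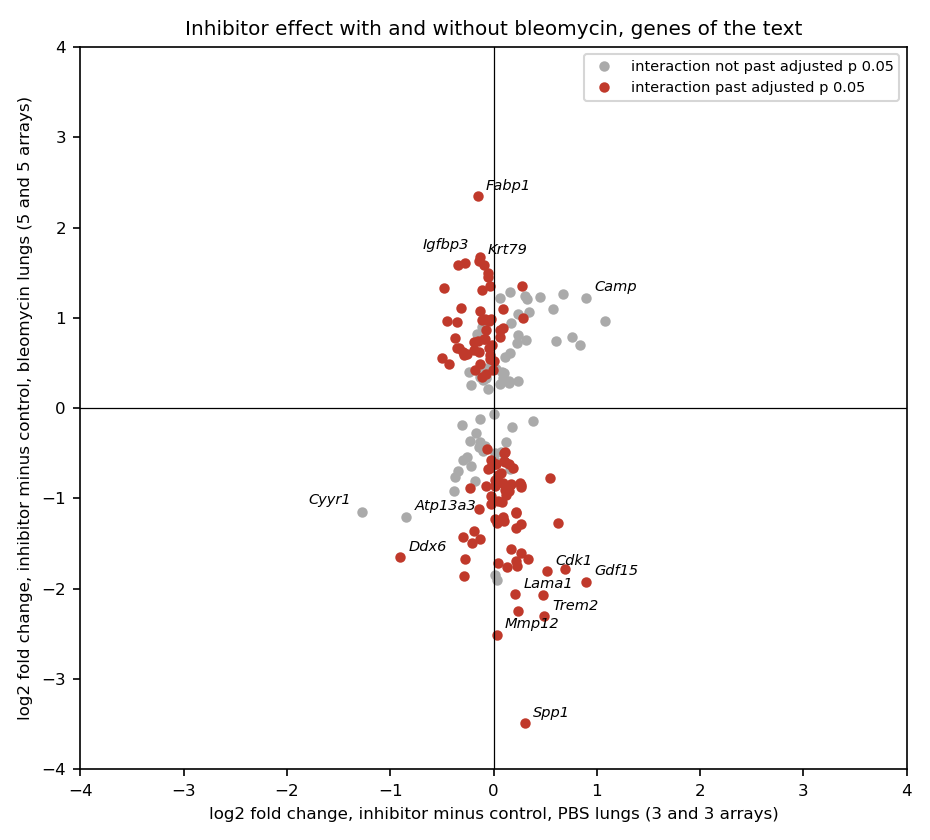
Log2 difference of inhibitor against control in PBS lungs (horizontal) and in bleomycin lungs (vertical) for the 182 genes described in the text, coloured where the interaction was called. Ddx6, Atp13a3 and Cyyr1 lie low on both axes, while Spp1, Trem2 and Gdf15 lie low on the vertical axis (-3.49, -2.31 and -1.92) and above 0 on the horizontal axis (0.30, 0.49 and 0.89).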

How the data were processed

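Whole-lung RNA (0.2 ug, Cy3 label) was hybridised to 1-colour Agilent arrays, per the labels' protocols. The authors deposited 1 table of log2 intensities for 62976 spots and 16 arrays, from 4.615 to 18.324. The sorted values of the arrays differed by at most 0.0974, as after quantile normalization. limma is named in the submitters' processing notes, without a version; the scanner software, background correction and detection calls are not given in the sources used here, so low levels have no bound. Of the probes 31465 had 1 gene symbol and the rest none; 2933 symbols were updated through accessions that matched RefSeq's table. The brightest probe stood for each of the 6086 genes with several probes, which left 20863 genes, none filtered out. R 4.3.3 and limma 3.58.1 (lmFit, eBayes, 4 group means, all 16 arrays) gave two-sided p-values, adjusted by Benjamini-Hochberg; the code was tested on simulated data. Within each bleomycin group any pair of arrays correlated at 0.9926 or more. The number of arrays limits the precision.

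The gene lists (46, with 907 of 948 members measured) and the genes described were chosen with earlier results of these data known. Genes with values were the 12 largest rises and falls above the median level without overlap, the 4 members of each list with the smallest p, and 17 genes of interest; values were added for 11 more after they were seen (Marco, Dcn, Lama4, Cald1, Sesn1, Hdc, Irf1, Ddx6, Atp13a3, Cyyr1 and Il22ra2), and other genes are named without values from counts. Alternatives were other scalings, probe rules, filters, weights, a replicate block, covariates and leaving out arrays. Sequences are from RefSeq's tables.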

Additional observations from a re-analysis of the deposited data

Results flagged for a closer look

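For 117 of the 182 genes with values the inhibitor effect in bleomycin lungs differed from that in PBS lungs (interaction, limma, adjusted p under 0.05). The values are the first effect minus the second, on the log2 scale. Over all genes the interaction was called for 1462 (7.01%). Many of the 182 were chosen by their difference in bleomycin lungs, which enters the interaction, so the 2 shares cannot be set against each other. The groups below hold only genes among the 117, and their interactions were not read in the 2 further fits. Macrophage genes had the more negative effect in bleomycin lungs: -3.80 for Spp1, -2.79 for Trem2, -2.47 for Gpnmb, -1.31 for Ctss, -0.60 for Mrc1, -1.30 for C1qb, -1.12 for C1qc, -0.77 for Lgals3 and -1.98 for Clec4n. So did genes of lysosomes and of phagocyte receptors or their signals: -0.86 for Lipa, -1.06 for Ctsd, -1.08 for Atp6v0d2, -1.36 for Olr1, -0.82 for Itgax, -1.04 for Clec7a, -0.95 for Socs3 and -1.13 for C3ar1. Fabp1, Krt79 and Ccl24 had the more positive effect there: 2.50 for Fabp1, 1.77 for Krt79 and 1.89 for Ccl24. In the matrix and basement membrane, the difference was -0.98 for Col1a1, -1.24 for Fn1, -1.40 for Eln, -1.12 for Mfap4, -1.28 for Tnc, 0.61 for Dcn, -0.79 for Col4a5, -2.27 for Lama1 and -0.79 for Lamb3. Among matrix enzymes, the difference was -0.55 for Bmp1, -0.63 for Adamts2, 1.07 for Mmp9, -2.54 for Mmp12, -1.89 for Timp1, -2.01 for Adamts4, -1.89 for Ctsk and -0.79 for Ctsb. In the TGF-beta pathway and in mesenchymal and mesothelial cells, the difference was -0.60 for Tgfbr1, -0.63 for Tgfbi, 0.93 for Ltbp4, -0.67 for Hhip, 0.62 for Ces1d, 1.01 for Slc7a10, 1.05 for Upk3b, 0.99 for Wt1 and 0.60 for Rspo1. The p53 targets among the 117 were all more negative: -1.32 for Cdkn1a, -1.55 for Ccng1, -2.81 for Gdf15, -2.56 for Psrc1 and -1.0 for Zmat3. On the whole p53 list 14 of 27 had a called interaction. Genes of division and replication among the 117 were more negative too: -2.32 for Cdk1, -1.87 for Prc1, -1.73 for Kif20a, -1.90 for Spc25, -1.07 for Tk1, -0.71 for Cdc6, -1.01 for Gins2 and -1.15 for Ccne1. On the whole lists 12 of 29 mitosis and 5 of 29 replication genes had a called interaction. In the epithelium, the difference was -0.64 for Krt18, -1.55 for Cldn4, -0.64 for Clu, 0.71 for Hopx, 0.46 for Clic5, -1.17 for Igfbp2, -1.32 for Spock2, 1.01 for Scgb3a1, 0.71 for Muc5b and 0.58 for Cldn10. Endothelial and caveolar genes among the 117 were more positive except Ehd2: 0.85 for Tek, 1.09 for Plvap, 0.72 for Sox18, 0.85 for Acvrl1, 0.46 for Cavin1 and -0.39 for Ehd2. Lymphocyte genes among the 117 were more positive: 1.81 for Cd79a, 1.31 for Cd79b, 1.42 for Cd37, 1.42 for Fcmr, 1.21 for Cxcr5, 1.15 for Gzma, 0.92 for Klrb1c, 0.76 for Ncr1 and 0.91 for Il2rb. On the T cell list 0 of 20 had a called interaction. Among other leukocyte genes and cytokines, the difference was 1.01 for S100a9, 0.86 for Gata2, 1.01 for Il5ra, 0.91 for H2-Oa, -1.35 for Ccl12, -0.85 for Lif, -0.87 for Hbegf and -1.38 for Igf1. Among interferon and stress genes, the difference was -1.02 for Isg15, -0.92 for Mx1, -0.84 for Oas1a, 0.87 for Gbp2, -1.08 for Atf3, 0.43 for Atf5, 0.83 for Chac1, -0.69 for Srxn1 and 0.89 for Gpx3. Among the largest changes outside the lists, the difference was 1.81 for Igfbp3, 1.93 for Pltp, 1.68 for Bex2, 1.55 for Ppp1r1b, 1.51 for Nrn1, 1.08 for Fabp12, 1.39 for Lypd2, 1.42 for Chad, -2.49 for Fxyd4, -1.58 for Ndnf and -1.75 for Nrcam. Of the remaining genes, the difference was -0.74 for Ddx6, 0.51 for Ets2, 0.80 for Myl7, 0.80 for Tnni3 and 0.72 for Ank1.

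Of 364 groups of 5 arrays examined for a single distant array (Dixon's criterion), 16 had one, where chance gives about 5%. On control replicate 3, Ctss read 15.589 against 15.82 to 15.88, Fabp1 read 9.313 against 8.30 to 8.49, C1qb read 11.345 against 11.93 to 12.10, Sesn1 read 11.61 against 11.08 to 11.17, Acvrl1 read 13.979 against 13.21 to 13.39 and Hgf read 7.934 against 8.12 to 8.19 on the other 4 arrays of its group. On inhibitor replicate 3, Ccn2 read 13.166 against 13.59 to 13.72 and Rhd read 7.001 against 7.34 to 7.45 on the other 4 arrays of its group. On control replicate 5, Hhip read 11.223 against 10.98 to 11.05 on the other 4 arrays of its group. On inhibitor replicate 5, Mfap4 read 15.226 against 14.86 to 14.96 and Cx3cr1 read 11.065 against 10.71 to 10.75 on the other 4 arrays of its group. On inhibitor replicate 4, Wt1 read 9.922 against 10.22 to 10.33, Igfbp2 read 12.829 against 13.19 to 13.27 and Chac1 read 10.583 against 9.95 to 10.09 on the other 4 arrays of its group. On inhibitor replicate 1, Cldn4 read 6.048 against 6.64 to 6.86 on the other 4 arrays of its group. On control replicate 2, Ehd2 read 13.494 against 13.41 to 13.42 on the other 4 arrays of its group.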

How the results depend on the processing

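The number of genes called in bleomycin lungs was 5188. It was 2356 without control replicates 1 and 4 and 2981 with the RNA integrity number as covariate. With the heart covariate it was 108, with the heart, fat and thymocyte covariates 161, and with those of squamous epithelium and skeletal muscle added (chosen after seeing the data) 216. Leaving out 1 array gave 3785 to 5640. The other alternatives moved it by less than 1.5 times; cyclic loess gave 2408 higher and 2694 lower, against 2803 and 2385. Nothing in the labels says that replicate numbers pair the arrays. Same-numbered bleomycin arrays correlated at -0.373 to 0.027 in their deviations, which cannot settle whether the numbers mark a shared batch. A fit with these numbers as a block, as if paired, called 4542 genes in bleomycin lungs, 3 in PBS lungs and 947 for the interaction. The count of 10 in PBS lungs was 3 without control replicates 1 and 4, 4 with the fat covariate, 24 with heart, fat and thymocyte covariates, 104 with squamous and skeletal muscle covariates, 6 with all 5 and 394 with array weights, and 2 to 121 without 1 array. The interaction count of 1462 was 525 without control replicates 1 and 4, 166 with the heart covariate, 199 with 3 and 146 with 5 covariates, 733 with the RNA integrity covariate and 3862 with array weights, and 632 (without PBS control replicate 2) to 2215 without 1 array. Some genes changed sign, none of them called with the new sign but Saa3. With the heart covariate Tgfb1 was -0.14, Acta2 -0.073, Ager -0.065 and Saa3 2.35. With 3 covariates Tgfb1 was -0.27, Acta2 -0.089, Ager -0.067, Tnrc6b -0.027, Arg1 0.19 and Saa3 2.60 (called). With 5 covariates Tgfb1 was -0.50, Acta2 -0.12, Ager -0.17, Tnrc6b -0.074, Slc4a1 -0.022, Arg1 0.27 and Saa3 2.41 (called). With the RNA integrity covariate Arg1 was 0.07 and Saa3 0.012. Without control replicates 1 and 4 Rag1 was 0.043 and Saa3 0.34, and with the thymocyte covariate Saa3 was 0.21. Leaving out 1 array put Saa3 between -0.53 (without control replicate 3) and 0.10 (without inhibitor replicate 4), above 0 in 5 fits and at 0 without inhibitor replicate 5, against -0.12 with all arrays. The cause of these changes was not tested.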
